A study of Mus musculus with 8 samples.

Results

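The genotype by activation interaction is the set of genes whose response to activation differed between wild-type and Elf4 knockout CD8+ T cells. For every probe set, the knockout minus wild-type difference in naive cells was subtracted from the same difference in activated cells, on log2(intensity + 16), and this value is called the interaction below. All 8 of the 8 arrays of the series entered it, with 45037 of the 45101 probe sets, since 64 manufacturer's controls were left out. A positive interaction means that the knockout stood higher relative to wild type after activation than before it, and a negative one that it stood lower.

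CD8+ T cells had been purified from the spleens of C57BL/6 wild-type mice or of Elf4-/- knockout mice, whose strain background the labels do not give. Naive cells were left untreated, and activated cells had spent 3.5 days in culture on plates coated with anti-CD3, with anti-CD28, in RPMI with FBS and T-stim. Wild-type naive, knockout naive, wild-type activated and knockout activated cells had 2 arrays each. Whether the 2 arrays of a group stand for different mice or cultures is not in the labels. The tests below can therefore be read only against the scatter of these arrays, part or all of which could be technical.

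ELF4, also called MEF, is a transcription factor of the ETS family, whose members bind DNA around a GGAA core. The series title ties it to the control of CD8+ T cell proliferation. Stimulation through the T cell receptor and CD28 takes resting T cells out of quiescence: immediate early genes are switched on first, the cells then enter repeated divisions, and genes of resting and homing T cells are turned down while those of effector cells are turned up. An interaction asks whether the loss of a factor acts alike before and after such a change of state.

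The arrays of the 2 states differed in more than activation, and one preparation stood apart. Naive arrays had the X-inactivation transcript Xist at 60.3 to 172 and the Y-linked Eif2s3y at 2537 to 5146, while activated arrays had Xist at 7703 to 10011 and Eif2s3y at 2.93 to 44.0. The 3'/5' signal ratio of Actb, which grows as RNA degrades, was 2.13 and 2.50 in wild-type naive, 1.99 and 1.96 in knockout naive, 5.98 and 5.90 in wild-type activated and 7.44 and 11.1 in knockout activated arrays. It was thus higher in the knockout than in wild type after activation and lower before it, so that this ratio moves with the interaction as well as with the state. The Lys spike-in controls stood at 444 to 713 in naive and at 56990 to 68399 in activated arrays. Activation, the sex of the mice, RNA integrity and array series therefore cannot be told apart. Each state held both genotypes, but a genotype effect that differed with sex or array series cannot be told apart from the interaction. Knockout naive replicate 2 had a summed intensity of 22098 over 18 granulocyte markers, against 5515, 1098 and 1412 on the other naive arrays and 647 to 1080 on the activated ones. The T cell genes Cd3d, Cd3e, Cd3g, Cd8a and Cd8b1 were present on every array, with sums of 57298 to 67791 in naive and 12682 to 17174 in activated arrays. In bulk samples such as these, fewer cells of a type and less RNA per cell cannot be told apart.

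Of the probe sets tested, 12 passed an adjusted p of 0.05 for the interaction, 0.0266% of all, with limma and Benjamini-Hochberg adjustment over all 45037. They belong to 10 genes. Positive interactions were found for Il24, Jun, Dnajb9 and Socs3, 4 probe sets (0.00888% of all), and negative ones for Igha, Lad1, Mki67, Mndal, Ifi209 and Ccdc50, 8 probe sets (0.0178%). Of all probe sets, 7.94% had an unadjusted p under 0.05. For comparison, 0.226% passed for knockout against wild type in naive cells alone and 0.111% in activated cells alone. The 4 differences between knockout and wild-type arrays in activated cells lay wholly on one side of the 4 in naive cells for each of the 12, as for 22.1% of all probe sets (11.7% on the positive and 10.4% on the negative side). Without wild-type activated replicate 1, wild-type activated replicate 2 or knockout activated replicate 1, the count of calls was 0 (2816, 2751 and 3083 probe sets at an unadjusted p of 0.05), and it was 3 without knockout activated replicate 2, 6 without knockout naive replicate 2, 33 without knockout naive replicate 1 and 48 without wild-type naive replicate 2. With the Actb 3'/5' ratio as a covariate the count was 0 too (2099 at an unadjusted p of 0.05). The 12 kept their sign in every one of these refits.

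**Figure D1:**
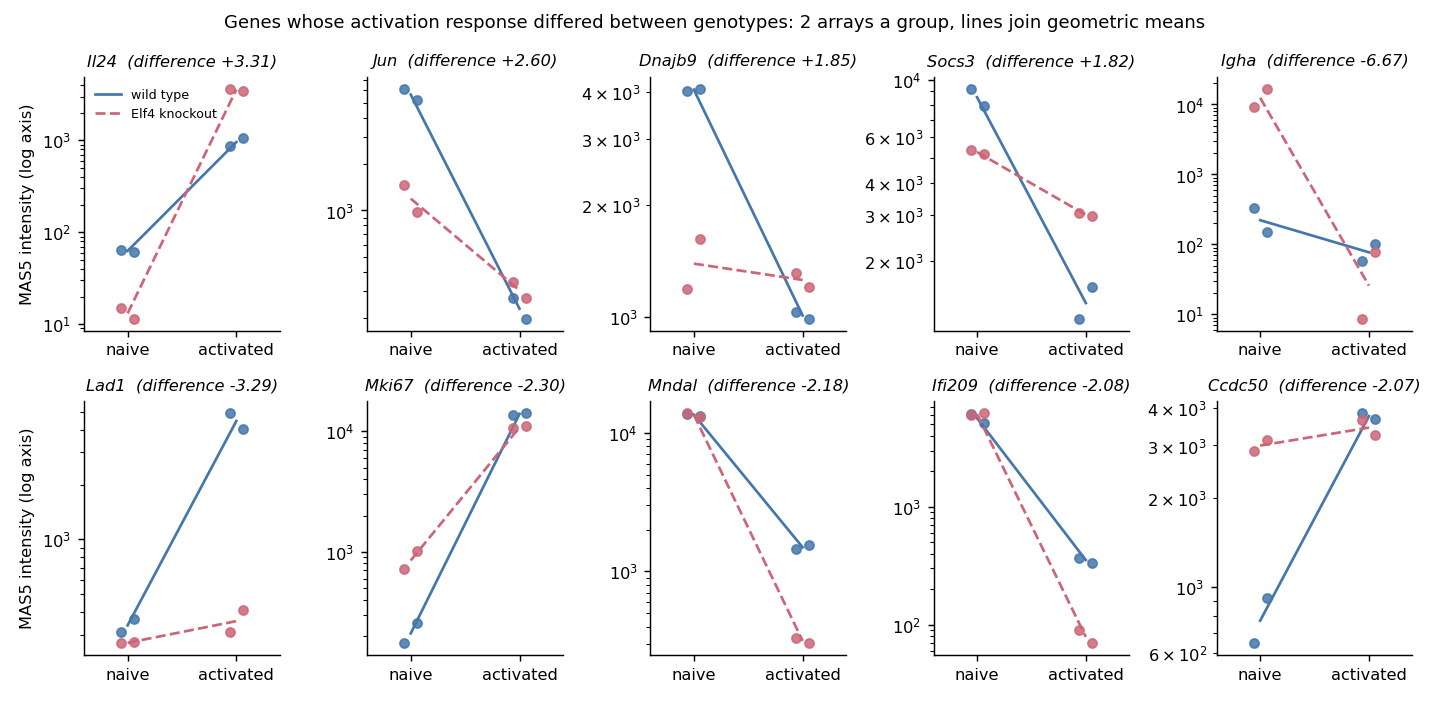
Intensity (log axis) of the 10 called genes, 1 probe set per gene, in naive and activated cells, with 1 point per array and lines that join the geometric means of each genotype. In activated cells Lad1 stands at 4936 and 4035 in wild type and at 309 and 410 in the knockout, whereas Jun and Mki67 are set apart by genotype in naive cells.

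Jun, Socs3, Dnajb9 and Il24 are genes of signalling and stress responses. Jun is part of AP-1, a dimeric transcription factor, and its intensity was 6164 and 5166 in wild-type naive cells, 1456 and 979 in knockout naive cells, 269 and 198 in wild-type activated cells and 342 and 269 in knockout activated cells. The genotypes were thus well separated before activation and touched after it. Jun fell 24.3-fold on activation in wild type and 3.98-fold in the knockout. The interaction was 2.60 ± 0.33 (SE; 95% interval 1.86 to 3.33) with a limma adjusted p of 0.031, and the knockout minus wild-type difference was -2.23 in naive cells (limma adjusted p 0.00520) and 0.37 in activated cells (0.748). A second Jun probe set gave an interaction of 1.93, with a limma adjusted p of 0.0860.

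Dnajb9 encodes a co-chaperone of the endoplasmic reticulum that is induced by unfolded proteins. Its intensity was 4038 and 4089 in wild-type naive cells against 1192 and 1625 in knockout naive cells, and then 1034 and 990 in wild-type against 1313 and 1208 in knockout activated cells. Knockout naive cells were already close to the level of activated cells. The fall on activation was 4.02-fold in wild type, while the knockout changed by -0.14 (log2, limma adjusted p 0.634), and the interaction was 1.85 ± 0.24 (SE; limma adjusted p 0.031).

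Socs3 encodes an inhibitor of cytokine signalling through STAT3. On its called probe set intensities were 9221 and 7920 in wild-type naive, 5338 and 5170 in knockout naive, 1194 and 1587 in wild-type activated and 3049 and 2973 in knockout activated cells. The genotypes did not overlap in either state, and their order turned. The interaction was 1.82 ± 0.22 (SE; limma adjusted p 0.0213), made of -0.70 in naive cells (adjusted p 0.138) and 1.12 in activated cells (0.0268). Other Socs3 probe sets gave 1.54 and 1.16, with limma adjusted p of 0.0789 and 0.520. The called probe set and that with 1.54 are of a kind that may also detect related transcripts. On the probe set with 1.16 the genotypes overlapped in naive cells, at 820 and 597 in wild type and 408 and 768 in the knockout. They did not overlap there in activated cells.

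Il24, a secreted cytokine of the IL-10 family, had the largest positive interaction among the called genes. It stood at 64.2 and 61.4 in wild-type naive cells and at 15.1 and 11.4 in knockout naive cells, all under the array medians of 70.7 to 86.2, and at 872 and 1056 in wild-type against 3659 and 3492 in knockout activated cells. Its rise on activation was 15.4-fold in wild type and larger in the knockout, which ended 3.71-fold above wild type. The interaction was 3.31 ± 0.36 (SE; 95% interval 2.52 to 4.10; limma adjusted p 0.0145).

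The windows of 250 bases before the RefSeq transcription starts of Jun and Dnajb9 (build GRCm38.p6, 5' to 3' on the gene's strand) are shown because both genes were lower in knockout naive cells. Jun lies on the minus strand at chr4:95052223-95052472 and Dnajb9 on the minus strand at chr12:44210069-44210318. Capitals mark matches on either strand to CGGAAG, an ETS sequence, TGACG, part of a CRE and overlapping TGACGTCA, and the GC box GGGCGG.
Jun: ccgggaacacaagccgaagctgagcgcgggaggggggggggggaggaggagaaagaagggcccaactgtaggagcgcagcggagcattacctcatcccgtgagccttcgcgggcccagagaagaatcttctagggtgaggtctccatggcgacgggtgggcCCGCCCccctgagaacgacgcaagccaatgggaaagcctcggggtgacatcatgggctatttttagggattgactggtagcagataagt
Dnajb9: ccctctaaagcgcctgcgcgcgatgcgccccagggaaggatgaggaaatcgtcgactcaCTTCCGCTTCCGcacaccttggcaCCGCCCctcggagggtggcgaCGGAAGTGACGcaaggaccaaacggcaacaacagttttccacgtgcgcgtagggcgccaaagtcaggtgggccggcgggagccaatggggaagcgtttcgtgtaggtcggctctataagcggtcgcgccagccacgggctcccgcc
The Dnajb9 window held CGGAAG 3 times, TGACG 1 time and the GC box 1 time, and the Jun window held the GC box 1 time. Of 32851 such windows of all genes, 13.6% held CGGAAG, 17.8% TGACG and 32.7% the GC box. The longer ETS sequence CCGGAAGT, found in 2.88% of windows, was in neither. The windows of Tnfaip3, Dusp1, Klf4 and Socs3, genes that were also lower in knockout naive cells, were looked up too and are not shown. Of these, only that of Tnfaip3 held CGGAAG, 1 time. A match is a description of letters only.

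Mndal and Ifi209 are interferon-inducible genes of the Ifi200 family, whose proteins bind DNA and share a cluster on chromosome 1. Mndal had overlapping levels in the genotypes in naive cells, at 13816 and 13290 in wild type and 13936 and 13090 in the knockout, and fell on activation to 1442 and 1546 in wild type and to 328 and 302 in the knockout. The genotypes overlapped before activation and were far apart after it. The fall was 9.07-fold in wild type and 42.9-fold in the knockout, with an interaction of -2.18 ± 0.18 (SE; 95% interval -2.58 to -1.78; limma adjusted p 0.00486). A second Mndal probe set, of a kind that may also detect related transcripts, gave -1.66 ± 0.18 (SE; limma adjusted p 0.0145).

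Ifi209 followed the same course on its called probe set, with 6186 and 5177 in wild-type naive, 6008 and 6259 in knockout naive, 371 and 336 in wild-type activated and 89.3 and 69.3 in knockout activated cells. Wild type fell 16.1-fold and the knockout 77.4-fold, and the interaction was -2.08 ± 0.25 (SE; limma adjusted p 0.0213). A brighter Ifi209 probe set gave -0.64 (limma adjusted p 0.595), with knockout minus wild-type differences of -0.94 in naive and -1.58 in activated cells. The Ifi200 genes resemble each other in sequence, so probe sets may detect more than one of them. Of the 8 measured members of the family, taking the brightest probe set of each, 1 had a called negative interaction (Mndal), 5 lay below 0 and 3 above, and Aim2, a sensor of cytosolic DNA, had 1.28 (adjusted p 0.701).

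The RefSeq windows before Mndal (minus strand, chr1:173880188-173880437, the first of 2 entries) and Ifi209 (plus strand, chr1:173630609-173630858), read as above, are shown because both genes fell further in the knockout. Capitals mark TGANTCA, the AP-1 sequence.
Mndal: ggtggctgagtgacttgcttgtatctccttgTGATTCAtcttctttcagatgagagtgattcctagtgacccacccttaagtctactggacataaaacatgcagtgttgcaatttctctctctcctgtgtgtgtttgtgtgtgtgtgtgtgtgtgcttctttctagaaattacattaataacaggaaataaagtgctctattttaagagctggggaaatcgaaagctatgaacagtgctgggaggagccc
Ifi209: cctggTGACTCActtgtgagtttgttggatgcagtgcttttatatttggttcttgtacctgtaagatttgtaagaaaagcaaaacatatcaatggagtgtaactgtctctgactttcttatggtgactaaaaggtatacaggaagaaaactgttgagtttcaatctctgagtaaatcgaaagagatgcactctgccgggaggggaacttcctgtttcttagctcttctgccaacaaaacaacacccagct
Each held the AP-1 sequence 1 time, as did 6.75% of all windows. Neither held the ETS sequences, the partial CRE or the GC box searched above. The shorter ETS core named earlier does occur in both windows and was not counted. In the gene order of GRCm38.p6, 3 protein-coding genes lie between Mndal and Ifi209. Lad1 and Il24 are on chromosome 1 too, so 4 of the 10 called genes are on the chromosome that holds 5.86% of the named genes, and 81 protein-coding genes lie between Il24 and Lad1.

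Lad1 encodes ladinin 1, a protein of epithelial basement membranes. It was 310 and 367 in wild-type naive and 269 and 273 in knockout naive cells, and 4936 and 4035 in wild-type activated against 309 and 410 in knockout activated cells. Only the wild-type activated arrays were high. Lad1 rose 13.2-fold in wild type, while the knockout changed by 0.38 (log2, limma adjusted p 0.259), and activated wild-type cells ended 12.5-fold above knockout cells. The interaction was -3.29 ± 0.30 (SE; 95% interval -3.94 to -2.63; limma adjusted p 0.00583). Lad1 and the first Mndal probe set kept their calls in 16 of 21 other settings and in 5 of the 8 refits that left out an array, the most of the called probe sets, and Jun, Dnajb9, Socs3 and Mki67 kept theirs in 2 of those 8.

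Mki67 encodes Ki-67, a nuclear protein of dividing cells. Its intensity was 174 and 255 in wild-type naive and 714 and 1006 in knockout naive cells, and 13710 and 14188 in wild-type against 10582 and 10998 in knockout activated cells. The knockout arrays lay above the wild-type arrays before activation and below them after it. Mki67 rose 65.1-fold in wild type and 12.5-fold in the knockout, and the interaction was -2.30 ± 0.28 (SE; limma adjusted p 0.0213), of which 1.93 was the naive difference (adjusted p 0.00396) and -0.37 the activated one (0.678).

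Ccdc50, a ubiquitin-binding coiled-coil protein, stood at 646 and 919 in wild-type naive and 2873 and 3130 in knockout naive cells, and at 3250 to 3860 in all activated arrays. It rose 4.82-fold in wild type, and knockout cells changed 1.15-fold (limma adjusted p 0.492). The interaction was -2.07 ± 0.24 (SE; limma adjusted p 0.0213) on this probe set, but the other 3 of the gene gave -0.36, -0.54 and -0.51, with limma adjusted p of 0.852, 0.699 and 0.945.

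Igha, the constant region of the IgA heavy chain, is a product of B cells and plasma cells and not of T cells. Its first probe set was 330 and 149 in wild-type naive, 9201 and 16831 in knockout naive, 57.9 and 103 in wild-type activated and 8.60 and 77.3 in knockout activated cells, so only the knockout naive arrays were high. Its interactions were -6.67 ± 0.81 and -5.48 ± 0.59 (SE; limma adjusted p 0.0213 and 0.0145) on its called probe sets and -5.77 (0.124) on the third. The summed intensity of 24 B cell and immunoglobulin markers was 51556 and 49534 in wild-type naive, 52056 and 88500 in knockout naive and 7369 to 12008 in activated arrays. In that list 1 gene was called negative, 14 lay below 0 and 10 above, and Ighm, the IgM heavy chain, had 0.85 (limma adjusted p 0.204). The part of B cells or plasma cells in the Igha result was not tested.

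**Figure D2:**
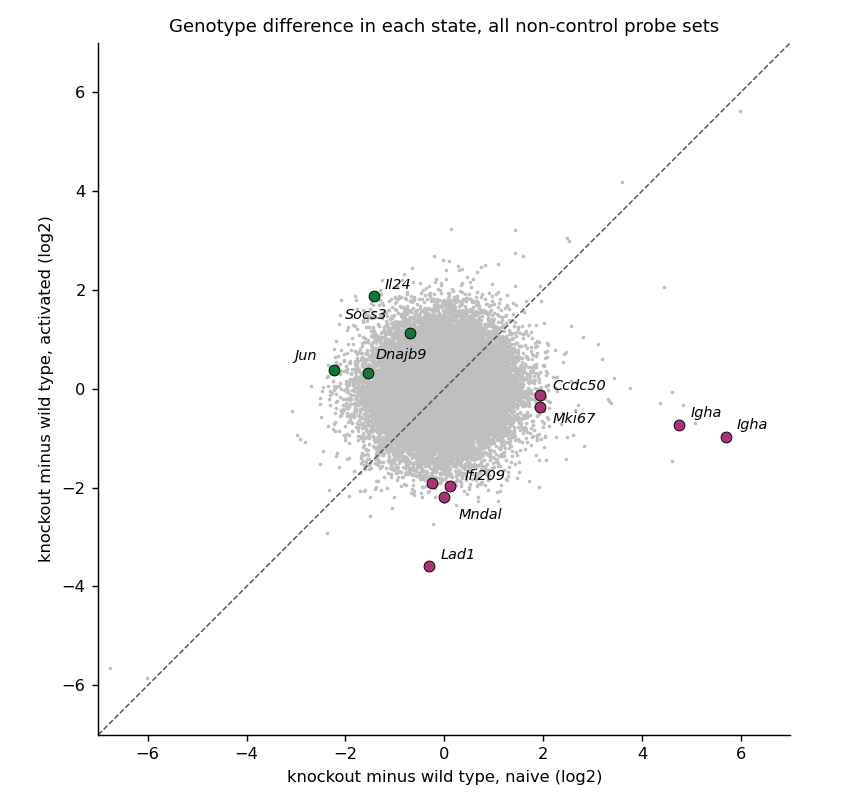
Knockout minus wild-type difference in naive cells (horizontal, log2) against that in activated cells (vertical, log2) for all 45037 probe sets, with the called ones coloured and the dashed line marking an interaction of 0. Jun, Dnajb9, Mki67, Ccdc50 and Igha lie out along the naive axis, Lad1, Mndal and Ifi209 along the activated axis, and Il24 and Socs3 off both.

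None of 12 genes that the study's own question points to passed the threshold. Klf4, a Kruppel-like factor that restrains proliferation, was 1861 and 2894 in wild-type naive, 535 and 302 in knockout naive, 391 and 280 in wild-type activated and 284 and 363 in knockout activated cells. Its genotypes were separate only before activation, and its interaction was 2.44 ± 0.44 (SE; 95% interval 1.48 to 3.40; limma adjusted p 0.124), while a second probe set gave -0.32 (0.971). Klf2, which maintains quiescence and homing receptors, was 13065 and 15381 in wild-type naive and 13372 and 17568 in knockout naive cells, and 242 and 284 against 109 and 119 after activation. Its interaction was -1.21 (95% interval -1.75 to -0.66; limma adjusted p 0.186), so both factors were measured with intervals away from 0 that did not survive adjustment over all probe sets.

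Elf4 itself was dim. Its brighter probe set was 116 and 199 in wild-type naive, 165 and 192 in knockout naive, 83.6 and 134 in wild-type activated and 76.2 and 80.6 in knockout activated cells, which overlap in naive cells. Where the probes lie relative to the deletion is not in the labels, so this probe set checks nothing about the knockout. The interaction was -0.58 (95% interval -1.91 to 0.74; limma adjusted p 0.871), and a second Elf4 probe set gave -3.08 (0.392). Homing receptors and the IL-7 receptor had narrow intervals around 0: Ccr7 0.04 (-0.39 to 0.47), S1pr1 0.30 (-0.28 to 0.88) and Il7r 0.19 (-0.18 to 0.55). The adhesion receptor Cd44 had 0.62 (-0.07 to 1.32) on its brightest probe set and -0.42, -0.39 and 0.84 on the others, so its direction is not settled. The cell cycle inhibitors Cdkn1a and Cdkn1b had 1.42 (0.61 to 2.24; limma adjusted p 0.321) and 0.74 (0.711), and the cytokine Ifng 1.60 (0.68 to 2.52; 0.321). The interactions of the cytotoxic granule genes Gzmb and Prf1 were -0.78 and -0.54, with limma adjusted p of 0.655 and 0.665. Over all probe sets the median interaction was 0.01 with a median SE of 0.68, which gives a typical 95% interval of 1.49 on either side.

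The immediate early and early response genes had the most one-sided positive interactions of the lists. Of 47 measured, 1 was called positive (Jun) and none negative, and 43 lay above 0. At an unadjusted p of 0.05, 30 had a positive interaction, where 4.3% of all probe sets did, and 2 a negative one. Members of this and the other lists were counted on their brightest probe sets. Of all 18193 named genes taken in that way, 924 had a positive and 852 a negative interaction at the same unadjusted p. The median interaction was 0.89, against 0.01 for all probe sets, and consisted of a median genotype difference of -1.02 in naive and 0.13 in activated cells. The mean log2 level of the list was 10.82 and 11.13 in wild-type naive, 10.06 and 9.93 in knockout naive, 10.21 and 10.16 in wild-type activated and 10.31 and 10.28 in knockout activated cells. Wild-type naive cells were the highest of the 4 groups and the other 3 lay close together. Tnfaip3, an inhibitor of NF-kB signalling, was the nearest to the threshold, at 6265 and 11098 in wild-type naive, 2338 and 2161 in knockout naive, 2864 and 2830 in wild-type activated and 3674 and 3375 in knockout activated cells, with an interaction of 2.19 (limma adjusted p 0.0558). The phosphatase gene Dusp1 had 2.08, the stress gene Ppp1r15a 2.13, the kinase gene Plk2 2.61 and Klf6 1.63, with limma adjusted p of 0.0958, 0.124, 0.133 and 0.136.

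Genes of the G2 and M phases leaned the other way. Of 53 measured, 1 was called negative (Mki67) and none positive, 44 lay below 0, and 29 had a negative interaction at an unadjusted p of 0.05, against 3.64% of all probe sets, and none a positive one. The median interaction of -1.04 came with median genotype differences of 0.73 in naive and -0.19 in activated cells. The mean log2 level was 7.63 and 7.75 in wild-type naive, 8.26 and 8.55 in knockout naive, 11.72 and 11.75 in wild-type activated and 11.56 and 11.55 in knockout activated cells. The genotypes did not overlap in either state, and the knockout was the higher in naive and the lower in activated cells. Sgo1, which protects centromere cohesion, had -3.02, the spindle checkpoint kinase Bub1b -2.09, the spindle midzone protein Prc1 -1.50 and the topoisomerase Top2a -1.54, with limma adjusted p of 0.0719, 0.0986, 0.0958 and 0.113. DNA replication and G1/S genes had a smaller median of -0.27, with 41 of 52 below 0, 6 at an unadjusted p of 0.05 (3.64% of all probe sets) and none called. On the brightest probe sets, their nearest to the threshold was Rrm2, a subunit of ribonucleotide reductase, at -0.93 (limma adjusted p 0.168). Another Rrm2 probe set, not called either, had larger knockout minus wild-type differences of 1.477 in naive and -0.565 in activated cells.

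Of 46 interferon-stimulated genes measured, none was called and 42 lay below 0. At an unadjusted p of 0.05, 22 had a negative interaction, against 3.64% of all probe sets, and none a positive one, against 4.3%. The median was -0.67, with 0.23 in naive and -0.43 in activated cells. The mean log2 level was 10.42 and 10.50 in wild-type naive, 10.68 and 10.76 in knockout naive, 9.13 and 9.14 in wild-type activated and 8.70 and 8.65 in knockout activated cells, so the order of the genotypes turned with activation. The interferon-induced GTPase genes Gbp6, Gbp2, Iigp1 and Irgm1 had -1.24, -1.34, -1.56 and -1.21, with limma adjusted p of 0.0958, 0.0958, 0.125 and 0.186.

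**Figure D3:**
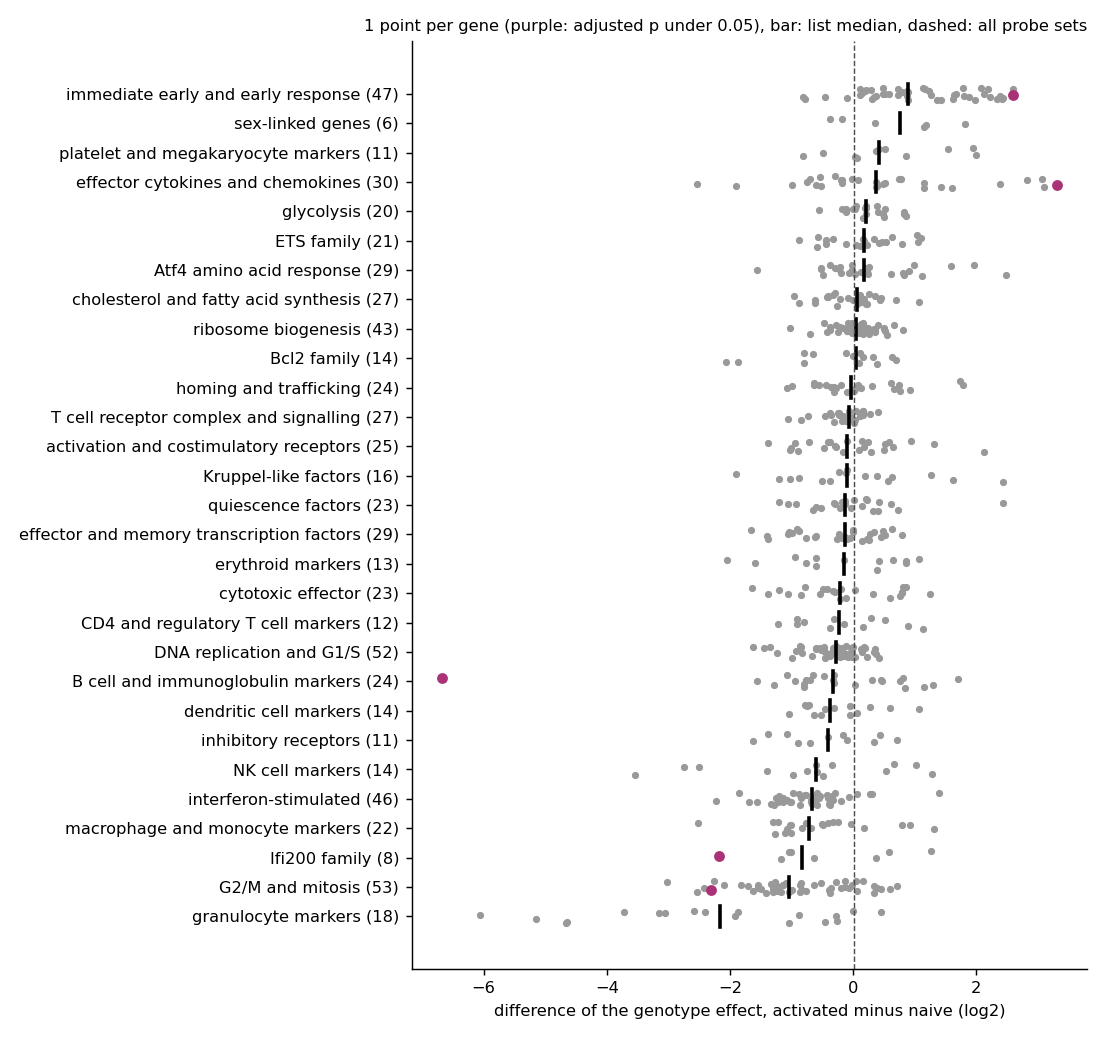
Interaction (log2) of every measured gene in the 29 lists, 1 point per gene on its brightest probe set, with a bar at each list's median and a dashed line at the median of all probe sets. Immediate early genes lie mostly right of the line, with a median of 0.89, and G2/M, interferon-stimulated and granulocyte genes mostly left of it, with medians of -1.04, -0.67 and -2.16.

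Effector cytokines and chemokines spread widely. Of 30 measured, 1 was called positive (Il24), 17 lay above 0 and 13 below, and the median of 0.38 turned to -0.03 without knockout naive replicate 1. The type 2 cytokine Il13 was 24.5 and 37.3 in wild-type naive, 6.40 and 8.10 in knockout naive, 315 and 403 in wild-type activated and 1273 and 1353 in knockout activated cells, so that, as for Il24, the genotypes changed order. The naive values of Il13, like those of Il24, were all under the array medians of 70.7 to 86.2. The Il13 interaction was 2.83 (limma adjusted p 0.146). Il21, Il5 and Il17a had 3.07, 3.10 and 2.39, with limma adjusted p of 0.282, 0.389 and 0.459. Negative values were found for Xcl1, a chemokine of activated CD8+ T cells, at 303 and 392 in wild-type naive, 441 and 442 in knockout naive, 3452 and 2233 in wild-type activated and 833 and 1056 in knockout activated cells. Its interaction was -1.89 (limma adjusted p 0.117), and that of Ccl1 was -2.53 (0.221).

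Among the transcription factors of effector and memory cells none of 29 was called, 18 lay below 0, and at an unadjusted p of 0.05 there were 8 negative and 1 positive, where 3.64% and 4.3% of all probe sets were. T-bet, encoded by Tbx21, was 736 and 770 in wild-type naive, 1252 and 1312 in knockout naive, 1581 and 1582 in wild-type activated and 1022 and 1013 in knockout activated cells. The genotypes were separate in both states and in opposite order, and the interaction was -1.38 (limma adjusted p 0.0789). Its relative Eomes had -1.39 (0.213). The median of the list was -0.13.

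The lists of markers of other cell types were not all alike. Granulocyte markers had the lowest median of all lists, -2.16, with 16 of 18 below 0, 10 of them at an unadjusted p of 0.05 (3.64% of all probe sets) and none called. S100a8, a calcium-binding protein of neutrophils, was 123 and 101 in wild-type naive, 1354 and 6941 in knockout naive, 32.0 and 46.3 in wild-type activated and 2.63 and 5.01 in knockout activated cells. Its interaction was -6.06 (limma adjusted p 0.0653), and without knockout naive replicate 2 the list's median was -1.55. NK cell markers had a median of -0.59 with 10 of 14 below 0, led by the lectin-like receptor Klrc1 at -2.51 (limma adjusted p 0.0653), which was 296 and 229 in wild-type naive, 485 and 907 in knockout naive, 2521 and 2925 in wild-type activated and 1160 and 1177 in knockout activated cells. Macrophage and monocyte markers had -0.72 with 18 of 22 below 0, and their summed intensity was 5979 and 7130 in wild-type naive, 8918 and 18994 in knockout naive and 1205 to 1580 in activated arrays. Dendritic cell markers had -0.38 (10 of 14 below 0), erythroid markers -0.14 (7 of 13), CD4 and regulatory T cell markers -0.23 (7 of 12) and platelet markers 0.42 (2 of 11), with none called. The part of these cells in the gene lists above was not tested.

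In the remaining lists, of T cell identity, metabolism and other families, none of the members was called. The medians were -0.06 for the T cell receptor complex and its signalling (17 of 27 below 0), -0.04 for homing and trafficking (12 of 24), -0.10 for costimulatory receptors (13 of 25), -0.41 for inhibitory receptors (8 of 11), -0.21 for cytotoxic effectors (14 of 23), -0.12 for quiescence factors (13 of 23) and -0.10 for Kruppel-like factors (9 of 16). Cd3e, a chain of the T cell receptor complex, had -1.05 and the inhibitory receptor Pdcd1 -1.63, with limma adjusted p of 0.204 and 0.236. Medians were 0.21 for glycolysis (4 of 20 below 0), 0.18 for the Atf4 amino acid response (12 of 29), 0.06 for cholesterol and fatty acid synthesis (12 of 27), 0.05 for ribosome biogenesis (19 of 43), 0.04 for the Bcl2 family (7 of 14), 0.18 for the ETS family (7 of 21) and 0.76 for sex-linked genes (2 of 6). Pdk1 and Hk2, enzymes that steer glucose use, had 0.86 and 0.83, with limma adjusted p of 0.237 and 0.274.

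The lists with one-sided interactions kept their sign when any 1 array was left out. Immediate early genes lay above 0 in 42 to 43 of 47 with medians of 0.93 to 1.11, G2/M genes below 0 in 40 to 46 of 53 with -1.20 to -0.78, interferon-stimulated genes below 0 in 41 to 43 of 46 with -0.82 to -0.61, and granulocyte markers below 0 in 15 to 17 of 18 with -2.79 to -1.55.

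**Figure D4:**
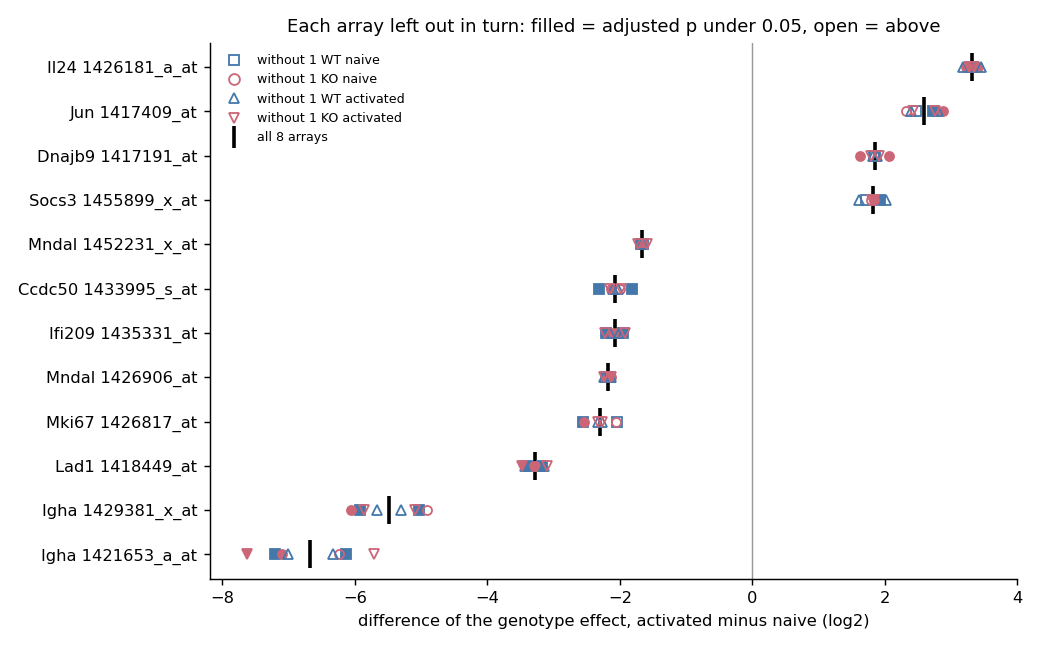
Interaction (log2) of the 12 called probe sets, with all 8 arrays (bar) and with each array left out in turn (symbols by the group it came from, filled where the adjusted p stayed under 0.05). The signs hold throughout, with Lad1 between -3.48 and -3.09 and Jun between 2.31 and 2.88.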

How the data were processed

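RNA was measured on 8 Affymetrix arrays. The authors deposited 1 linear intensity per probe set and array, made with MAS5 (no version named) per the submitters' processing notes. Intensities were taken as log2(intensity + 16) with no filter and no further scaling, so changes of dim genes are understated. In R 4.3.3 with limma 3.58.1, 4 group means were fitted to all 8 arrays (lmFit, eBayes with trend=TRUE; 4 residual degrees of freedom, prior 7.09). Tests were two-sided, with Benjamini-Hochberg adjustment over 45037 probe sets and a threshold of 0.05. The number of arrays limits the precision.

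Symbols came from the platform annotation, updated through RefSeq (GRCm38.p6): 34945 probe sets had 1 symbol (34741 matched, 204 kept), 932 several and 9160 none, and only the first kind was named. Named were genes of the study's question, called genes whose array differences did not overlap (up to 15 each way), and up to 4 genes per list with the smallest p, on the brightest probe set. Ppp1r15a, Plk2, Top2a, Ccl1, Il21, Il5 and Il17a lie beyond this rule and were picked after their values were seen. The members and the 29 lists (773 entries, 702 measured) were chosen with earlier results of these data known. Promoter windows were looked up in RefSeq for 15 genes, of which 12 matched. The fit was tested on simulated data. Alternatives covered the offset, scaling, filters, variance estimation, blocks, RNA integrity and each array left out; list medians under them were added after seeing the data.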

Additional observations from a re-analysis of the deposited data

Results flagged for a closer look

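The 12 called probe sets are those whose genotype effect differed between naive and activated cells by a test of that difference, the interaction term. Positive interactions (log2) were 3.31 for Il24, 2.60 for Jun, 1.85 for Dnajb9 and 1.82 for Socs3. Negative ones were -6.67 and -5.48 for Igha, -3.29 for Lad1, -2.30 for Mki67, -2.18 and -1.66 for Mndal, -2.08 for Ifi209 and -2.07 for Ccdc50. For Ccdc50 and Ifi209 other probe sets of the gene gave values nearer to 0, and Igha was high only on the knockout naive arrays, on which granulocyte markers were highest as well.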

How the results depend on the processing

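The count of 12 called probe sets depended on the variance estimate and on single arrays. In limma it was 0 without the trend (3258 at an unadjusted p of 0.05), 0 with the Actb 3'/5' ratio as a covariate (2099), 21 with robust estimation, 19 with array weights and 23 with the label in the titles (WT1, WT2, KO1, KO2) as a block, which ties the naive and activated arrays of 1 label. Leaving out 1 array, with the lone array of its group assumed to vary like the others, gave 0 to 48, and the counts of 0 came with 2816, 2751 and 3083 at an unadjusted p of 0.05. With the replicate number as a block it was 13, of which 11 were among the 12; same-numbered arrays deviated together with correlations of -0.10 to 0.04, so the numbers were not taken as pairs. Other offsets, scalings and filters gave 8 to 16, and centring each array on its median gave 2 positive and 9 negative calls. Of 2634 values for 128 probe sets under 21 refits, 2620 kept their direction and 2495 also their side of the threshold, 92 fell below it and 33 rose past it. Of the 128, only the 12 called probe sets could fall below it, and they gave all 92 such values. The 14 that reversed, for which the cause was not tested, were Uty with no offset (0.55), the Actb covariate (1.14), without wild-type naive replicate 2 (0.18) and without wild-type activated replicate 2 (0.02), Ccr7 with quantile normalization (-0.064), median centring (-0.032), without knockout naive replicate 2 (-0.12), without wild-type activated replicate 2 (-0.01) and without knockout activated replicate 1 (-0.04), Il7r with quantile normalization (-0.065), and with the Actb covariate Gpr83 (0.23), Ets2 (0.019), Itgae (0.25) and Itgb3 (0.44). Leaving out 1 array gave Ccr7 -0.12 to 0.19 and Uty -0.91 to 0.18. The 4 lists with one-sided interactions kept their sign in all 21 refits, and the granulocyte median moved to -0.26 over the 4 members left by the filter on 6 of 8 arrays. The cytokine median turned to -0.20 under that filter.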

Other observations

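Among the probe sets just short of the threshold were further genes with a genotype difference mainly in activated cells. Uri1, a prefoldin-like protein, was 2990 and 5434 in wild-type naive, 4304 and 4219 in knockout naive, 5216 and 5475 in wild-type activated and 1282 and 1335 in knockout activated cells, with an interaction of -2.10 (limma adjusted p 0.0653). Pop4, a subunit of RNase P, had -1.83 (0.0653), and 3 protein-coding genes lie between Pop4 and Uri1 on chromosome 7. Ap1s3, a subunit of a clathrin adaptor complex, went the other way: it was 160 and 147 in wild-type naive, 193 and 183 in knockout naive, 187 and 182 in wild-type activated and 1105 and 1105 in knockout activated cells, with an interaction of 2.21 (limma adjusted p 0.0860). The knockout minus wild-type difference in activated cells was -2.02 for Uri1 and for Pop4 (limma adjusted p 0.00410 and 0.00168) and 2.48 for Ap1s3 (0.00231), and in naive cells it was 0.08, -0.19 and 0.27. These genes were chosen after their values were seen.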
